A study of Caenorhabditis elegans with 2 samples.

Results

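CEBP-1 belongs to the C/EBP family of transcription factors, which carry a basic leucine zipper (bZIP), and was mapped in Caenorhabditis elegans. Intronic CEBP-1 peaks outside promoters are the sites of its binding whose summit fell inside a protein-coding gene, outside protein-coding exons and promoters. A peak was counted when its summit lay in the body of a protein-coding gene, in no exon of a protein-coding gene, and in no promoter. A promoter ran from 1000 bp upstream to 200 bp downstream of any protein-coding 5′ end in WBcel235 (the same build as ce11). Of the 1546 peaks of the series' conservative list, 217 met this rule (14%, 95% Wilson interval 12.4 to 15.9%). Only the summit was placed by it: 62 of the 217 peaks reached into an exon and 27 into a promoter. The others were 879 promoter, 326 intergenic, 63 exon and 61 non-coding gene summits.

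The list came from chromatin immunoprecipitation of whole young adults of strain RW12290, aged 62 hours after bleaching and L1 starvation. In this strain a TY1-EGFP-3xFLAG tag was inserted by CRISPR at the endogenous cebp-1 gene (allele st12290), and the tagged protein was pulled down with an anti-GFP antibody. There was 1 group with 2 biological replicates, and the conservative list holds peaks that repeated between them by irreproducible discovery rate (IDR). Signal below is the authors' own value per peak, without a stated scale. Read depth is unknown, and no untagged or input sample was used here, so no background can be set beside the values. Since whole animals were used, strong binding in few cells and weak binding in many cells cannot be told apart.

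C/EBP proteins bind DNA as dimers, each partner reading one arm of a short, nearly palindromic site. In worms CEBP-1 is known for its part in axon regeneration downstream of the kinase DLK-1 and in stress and immune responses. Introns of worm genes are mostly very short, but some hold enhancers, start sites of shorter isoforms and nested genes such as those for transfer RNA (tRNA).

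The 8-base word TTGCGAAA, read on either strand, stood near the summit of 26.3% of these peaks, against 28.6% of all peaks of the list. The following stretches of ce11, examples from strong intronic peaks on 4 chromosomes, show it in capitals, each read 5′ to 3′ on the strand that carries it.
dhc-4, chrIII:10989491-10989531, minus strand: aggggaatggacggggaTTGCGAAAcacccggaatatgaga
Y43F8B.2, chrV:19529246-19529286, minus strand: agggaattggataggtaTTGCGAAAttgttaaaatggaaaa
dnj-9, chrII:4856254-4856294, plus strand: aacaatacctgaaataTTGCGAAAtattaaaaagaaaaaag
Y71H10B.1, chrX:2837715-2837755, minus strand: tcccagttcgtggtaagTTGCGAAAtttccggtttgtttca
klc-2, chrV:5580777-5580817, plus strand: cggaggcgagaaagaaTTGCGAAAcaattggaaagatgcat
ZK470.2, chrX:4137636-4137676, plus strand: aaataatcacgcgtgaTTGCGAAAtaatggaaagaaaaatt

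In some host genes the word stood in clusters. Examples from 3 of them are shown on the plus strand, where TTTCGCAA is the same word on the other strand.
Y51H4A.13, chrIV:16645602-16645736: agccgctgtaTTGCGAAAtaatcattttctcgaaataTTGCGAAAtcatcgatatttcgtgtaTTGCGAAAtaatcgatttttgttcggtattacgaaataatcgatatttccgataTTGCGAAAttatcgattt
Y24D9B.1, chrIV:4318199-4318308: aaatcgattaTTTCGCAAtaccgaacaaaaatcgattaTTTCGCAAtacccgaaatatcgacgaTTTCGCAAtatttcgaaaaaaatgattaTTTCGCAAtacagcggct
unc-33, chrIV:3520526-3520637: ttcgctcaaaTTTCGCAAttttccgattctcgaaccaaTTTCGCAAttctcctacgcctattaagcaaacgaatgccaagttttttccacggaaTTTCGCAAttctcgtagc

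Other intronic peaks held a GA repeat, shown in capitals for epg-9 and mdt-26, or had their summit inside a tRNA gene, shown in capitals for the histidine tRNA gene in C06G1.1.
epg-9, chrIV:2602172-2602237, minus strand: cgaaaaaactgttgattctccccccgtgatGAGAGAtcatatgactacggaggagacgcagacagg
mdt-26, chrII:5661821-5661886, plus strand: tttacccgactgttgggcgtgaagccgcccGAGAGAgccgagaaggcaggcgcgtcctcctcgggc
C06G1.1, chrX:16634820-16634911, minus strand: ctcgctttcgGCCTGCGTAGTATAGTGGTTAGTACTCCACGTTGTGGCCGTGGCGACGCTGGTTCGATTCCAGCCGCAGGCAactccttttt

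The first comparison set the 201 bases around each summit (100 bp on each side) against an equal window of the same peak centred 500 bp away. Flanks were not held to the same intron. For the 44 summits in introns of up to 500 bp the flank centre lay outside that intron, so the kind of sequence can differ. TTGCGAAA stood near the summit of 57 of the 217 intronic peaks (26.3%, 20.9 to 32.5%), against 6 flanking windows (2.76%, 1.27 to 5.90%). In 53 peaks only the summit window held it, against 2 peaks where only the flank did (two-sided exact McNemar test, Benjamini-Hochberg adjusted p = 1.11e-12 over 13 motifs). GAGAGA stood at 32.7% of summits and in 11.5% of flanks (exact McNemar test, adjusted p = 6.4e-07). The GC box core GGGCGG stood at 13.4% of summits and in 3.69% of flanks (exact McNemar test, adjusted p = 0.0014), a call that was lost against flanks 1000 bp away (adjusted p = 0.138), with other genes' exons allowed (adjusted p = 0.0652) and at IDR of at most 0.001 (adjusted p = 0.0584). TTGCNNAA, which contains TTGCGAAA as one of its forms, stood at 36.4% of summits and in 23% of flanks (exact McNemar test, adjusted p = 0.00806). By the same exact test that call was lost with windows of 150 bp (adjusted p = 0.425), with promoters of 2000 bp upstream (adjusted p = 0.521) and with replicate 2's own list (adjusted p = 1).

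The other 9 motifs did not pass. The palindromic C/EBP consensus TTRCGYAA (R for A or G, Y for C or T) was found at 2 summits, in ppfr-1 and F49E2.5, against 4 flanks. TTGCGTAA, one form of it, stood at 2 summits and in 1 flank, and the composite C/EBP-ATF site TTGCATCA at 4 summits and in 4 flanks. The AP-1 site TGANTCA stood at 5.53% of summits and in 6.45% of flanks. The SKN-1 site WWTRTCAT (W for A or T) stood at 5.99% and 6.45%, and in the optimal list it was less frequent at summits than in flanks (exact McNemar test, adjusted p = 0.0206). Shares at summits and in flanks were 15.2% and 11.5% for the GATA factor site TGATAA, and 12% at both for the TATA box core TATAAA. The scrambled control TTCGRYAA stood at 3.69% of summits and in 6.91% of flanks (exact McNemar test, adjusted p = 0.492). The E-box CACGTG stood at 10.1% of summits and in 6.45% of flanks (exact McNemar test, adjusted p = 0.497), and it passed under 6 of 13 alternatives, with adjusted p between 0.00492 and 0.045. The flank side alternates along the list, so removing peaks from the list also changes which flanks are read.

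**Figure D1:**
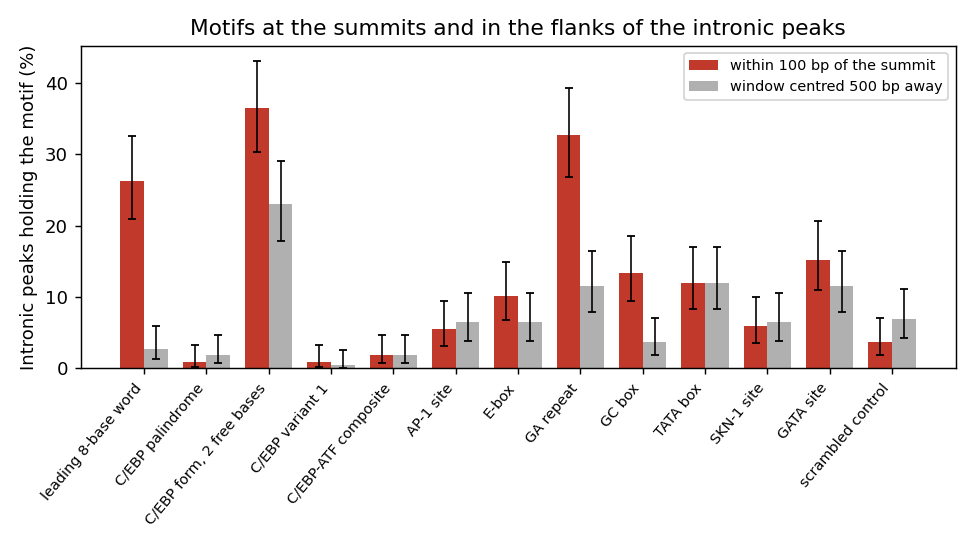
Share of the 217 intronic peaks (%) that hold each of 13 motifs within 100 bp of the summit (red) and in the flank centred 500 bp away (grey), with 95% Wilson intervals. The leading 8-base word is TTGCGAAA and shows the widest gap, 26.3% against 2.76%, followed by the GA repeat GAGAGA, 32.7% against 11.5%.

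The word was also found without the intronic peaks. A search of all 32726 8-base words, strands joined, on the 1329 other peaks gave TTGCGAAA as leader, at 29.0% of summits and in 1.88% of flanks. Tested once on the intronic peaks it gave an exact McNemar p = 8.55e-14. The same word led when the search was limited to promoter peaks. The word was known from earlier work on the same list, so this is not independent evidence. TTGCGAAA begins with TTGC, an arm of the C/EBP palindrome, while its reverse complement begins with TTTC.

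The 57 peaks with the word held 70 copies of it. The median distance of the nearest copy to the summit was 24.5 bp (quartiles 13.5 and 33.5 bp), against 18.5 bp in the 274 promoter peaks and 17.5 bp in the 96 intergenic peaks with the word. Its neighbours were also uneven: A preceded 65.7% of the 70 copies and T followed 78.6%, against 60.7% and 71.3% of 300 copies at promoter summits. Every copy was counted, so the copies are not independent sites. Those in the related clusters of Y51H4A.13 and Y24D9B.1 all had A before and T after, and the shares without them were not computed. Of 50 intronic peaks with a single copy and a single host, 25 carried it on the strand of the host gene and 25 on the other (two-sided exact binomial p = 1). No orientation relative to transcription was detected at this number of sites.

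Intronic peaks with the word were the stronger ones. Their median signal was 138, against 95.2 for the 160 without it, and 75.4% of them lay above the median of the intronic peaks, against 40.6% (two-sided Fisher's exact test, adjusted p = 3.1e-05 over 5 comparisons). Of the 20 strongest intronic peaks 10 held it. By the same exact test the difference kept its direction in all 12 alternatives, but the call was lost in the optimal list (adjusted p = 0.113), at IDR of at most 0.001 (adjusted p = 0.12) and with replicate 2's own list (adjusted p = 0.0593). Of the peaks in first introns 38 of 77 were above the median, against 70 of 140 in later introns (Fisher's exact test, adjusted p = 1). Longer introns (54.1% against 45.4%, adjusted p = 0.349) and hosts with a promoter peak (58.3% against 48.1%, adjusted p = 0.349) did not pass Fisher's exact test. Summits inside a nested non-coding gene were above the median in 31.2%, against 55.0% of the others (Fisher's exact test, adjusted p = 0.0128). That difference changed direction in the optimal list (adjusted p = 0.603 by the same exact test) and with replicate 2's own list (adjusted p = 0.152), and the call was lost in 5 other alternatives.

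The strongest intronic peak lay in intron 31 of 34 of dhc-4, a dynein heavy chain gene, at III 10989380 to 10989761. Its signal was 748.9 in the series list, with 429.8 in replicate 1 and 311.9 in replicate 2, and it ranked 23 among all 1546 peaks. The next, in the 9619 bp intron 4 of Y43F8B.2 on V (19529159 to 19529437), had 740.0, with 398.3 in replicate 1 and 342.6 in replicate 2, and ranked 25. Both peaks stood well apart from the rest in both replicates. The third, in intron 6 of dnj-9 on II (4856185 to 4856374), a DnaJ domain chaperone gene, had 404.0 (232.9 in replicate 1 and 166.9 in replicate 2). The promoter of dnj-9 held a peak of the list as well. Y111B2A.12 came next, at III 12614643 to 12614846 in intron 4, with 382.1 (235.1 in replicate 1 and 147.9 in replicate 2) and without the word. These 4 were the intronic peaks among the 100 strongest of the list.

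The next intronic peak by signal belonged to unc-33, which encodes a CRMP protein needed for axon growth and guidance. It lay in intron 7, which is 3194 bp long, at IV 3520469 to 3520672, with a signal of 331.6. Replicate 1 gave 240.5 and replicate 2 gave 92.72, so the replicates differed more at unc-33 than at the peaks above it. The summit was 0.5 bp from the centre of the middle one of its 3 copies of the word. The mod-5 peak, in the last intron of the serotonin reuptake transporter gene at I 3035944 to 3036109, had 319.7 (164.2 in replicate 1 and 155.8 in replicate 2). Only 60.2% of the 36-base words in its window occur once in the genome, and how far reads there were shared with other places was not tested.

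The remaining peaks of the strongest 20 had signals from 300.9 at B0361.11 to 224.2 at frm-7. They lay in ppfr-1 (a regulatory subunit of protein phosphatase 4), ZK470.2 (2 peaks), the autophagy gene epg-9 and Y71H10B.1, then in the anion transporter gene abts-4 and klc-2, which encodes a kinesin light chain. The rest were in the Mediator subunit gene mdt-26, Y102A11A.9, the peroxidasin gene pxn-1, skp-1 and the DNA polymerase alpha gene pola-1. All 20 had a peak in the thresholded list of each replicate. At 3 of them replicate 2 was the higher: mdt-26 had 96.71 in replicate 1 and 148.0 in replicate 2, frm-7 had 94.51 and 123.9, and epg-9 had 123.2 and 128.9. The frm-7 summit fell inside the nested small nucleolar RNA gene C51F7.4.

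**Figure D2:**
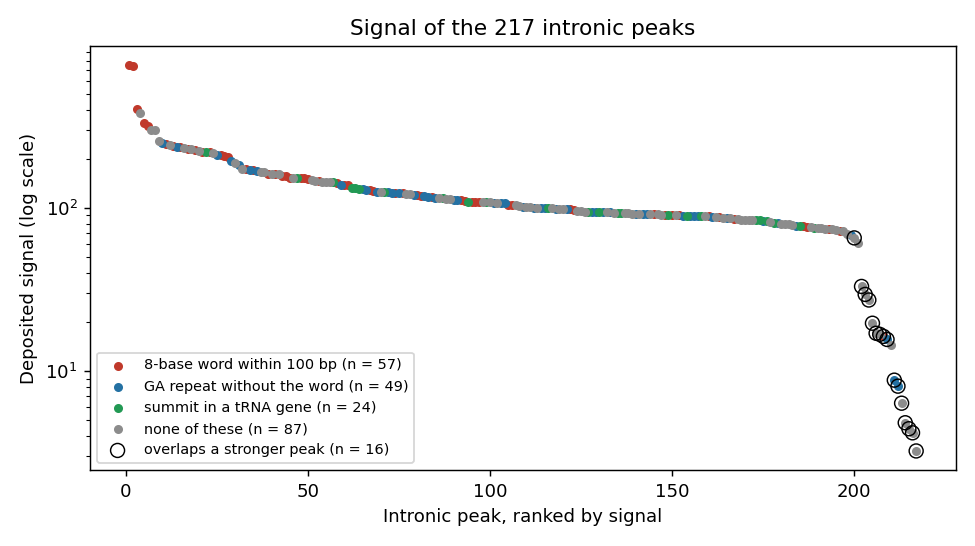
Deposited signal (log scale) of the 217 intronic peaks ranked from strongest to weakest, coloured by what stands at the summit. Both peaks at the top hold the 8-base word, and the circled peaks, which overlap a stronger peak, fill most of the low end, from 3.24 to 65.5.

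The weakest intronic peaks mostly overlapped stronger ones. In all, 16 of the 217 (7.37%) overlapped a stronger peak of the conservative list whose summit lay 199 to 244 bp away. Their signals ran from 3.24 to 65.5 with a median of 16. Such overlap was not particular to introns: 93 of all 1546 peaks overlapped a stronger one. The other 201 intronic peaks had a median of 108. Of the 16 intronic peaks with a signal under 50, 15 were of this kind. The exception, in T02C5.1, had a signal of 14.45 and no ranked peak in either replicate. The 3 weakest were in pmt-2, which makes a phosphoethanolamine methyltransferase (3.243), nadk-2, an NAD kinase gene (4.188), and T02C5.1 (4.437). A stronger intronic peak of 82.1, 107 and 84.3 stood beside them. Because each such pair overlaps the same peak in a replicate's own list, its replicate values are shared: at nadk-2 both read 50.97 in replicate 1 and 52.30 in replicate 2.

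Intronic peaks lay in 188 introns of 181 genes. Among the 17316 protein-coding genes with any eligible intron base, 1.05% hosted one. In 27 host genes there were 2 or more peaks, 63 in all. ppfr-1 held 4, with signals of 300.5, 101.1, 98.43 and 65.53 over introns 6 and 7. kin-20, the casein kinase 1 gene related to fly doubletime, held 3 in its first intron, of 218.7, 100.2 and 16.33, and its strongest held the word. ZK470.2 held 258.0, 231.1 and 94.88, and Y111B2A.12 held 382.1, 125.7 and 8.090. tir-1, skn-1, scd-1 and T02C5.1 also held 3 each.

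The other hosts with several peaks held 2. Some had both well apart: pqn-41 (215.8 and 89.62 in its 10372 bp intron 14), zfp-1 (114.8 and 80.96), pxn-1 (233.5 and 87.91), abts-4 (243.2 and 78.32), mod-5 (319.7 and 160.5), F49E2.5 (127.0 and 94.76) and Y43F8B.2 (740.0 and 144.4). Y48C3A.5 held 74.71 and 68.70 in the longest intron of the set, 19927 bp. In others the second peak was one of the weak neighbours described above, as in daf-5 (123.3 and 8.806), fkh-7 (114.1 and 15.64), ell-1 (91.83 and 6.362), cct-5 (117.6 and 16.80), nadk-2, trd-1 (84.11 and 19.66), ttr-51 (76.83 and 33.03), R107.5 (61.25 and 27.28) and pmt-2.

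Y51H4A.13 and Y24D9B.1, both on IV, held 2 peaks each in their first introns, which are 1043 and 1111 bp long. The signals were 172.1 and 157.5 in Y51H4A.13 and 161.6 and 152.1 in Y24D9B.1. Their windows held 4, 2, 4 and 3 copies of the word, spaced 26 to 54 bp apart. The 2 windows with 4 copies shared an identical run of 65 bases, read on opposite strands, and 81.9% of their 36-base words were unique in the genome. Replicate 1 gave 115.3, 111.5, 119.8 and 73.64 for the 4 peaks in the same order, and replicate 2 gave 59.99, 62.76, 51.52 and 87.18. The other intronic peaks with several copies were those of unc-33 and Y102A11A.9, with 3 each, and they shared no run over 13 bases with these or with each other. At promoter summits 24 of 274 peaks with the word held several copies, against 6 of 57 intronic peaks.

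The second comparison was with the other classes of summits. The word stood at 26.3% of intronic summits, against 31.2% (28.2 to 34.3%) of promoter summits, a difference that did not pass (Fisher's exact test, adjusted p = 0.28 over 9 comparisons). It passed when promoters reached 2000 bp upstream and 500 bp downstream (exact test, adjusted p = 0.0127) and with replicate 2's own list (adjusted p = 0.00333). Intergenic summits held it in 29.4% (Fisher's exact test, adjusted p = 0.522, or 0.0468 with replicate 2's own list), and over all 1546 peaks it was 28.6%. Exon summits held it less often, in 7 of 63 (11.1%, 5.49 to 21.2%; Fisher's exact test, adjusted p = 0.024). By the same exact test the exon call was lost in 6 of 13 alternatives, with adjusted p between 0.0589 and 0.452.

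Intronic peaks were weaker than promoter peaks. Their signal had a median of 102 (quartiles 87.5 and 145), against 122 (92.9 and 196) at promoter summits, 116 at intergenic and 92.9 at exon summits. Above the median of the whole list were 38.7% of intronic peaks, against 54.6% of promoter peaks (Fisher's exact test, adjusted p = 0.000261). Against the intergenic peaks, of which 50.9% were above, the adjusted p was 0.0191 by Fisher's exact test, a call lost in 6 of 13 alternatives, among them overlapping peaks merged (adjusted p = 0.0825). Against exon peaks, at 33.3%, the adjusted p was 0.522 by Fisher's exact test. Among 13 alternatives the promoter difference was lost at IDR of at most 0.001 only (exact test, adjusted p = 0.101).

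They were also found less often in the thresholded lists of both replicates. This held for 79 intronic peaks (36.4%, 30.3 to 43%), against 48.0% of promoter peaks (Fisher's exact test, adjusted p = 0.0104), 44.2% of intergenic peaks (adjusted p = 0.136) and 36.5% of exon peaks (adjusted p = 1). Over all peaks the share was 44.4%. Another 68 intronic peaks were in the list of replicate 1 only, 15 in that of replicate 2 only and 55 in neither. By the same exact test the promoter difference was lost at IDR of at most 0.001 (adjusted p = 0.742), when promoters reached 2000 bp upstream (adjusted p = 0.0953) and among windows of unique sequence (adjusted p = 0.0667). In replicate 1's own list every peak is in that list, so the measure there was only presence in replicate 2's list. That difference did not pass (Fisher's exact test, adjusted p = 0.226).

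**Figure D3:**
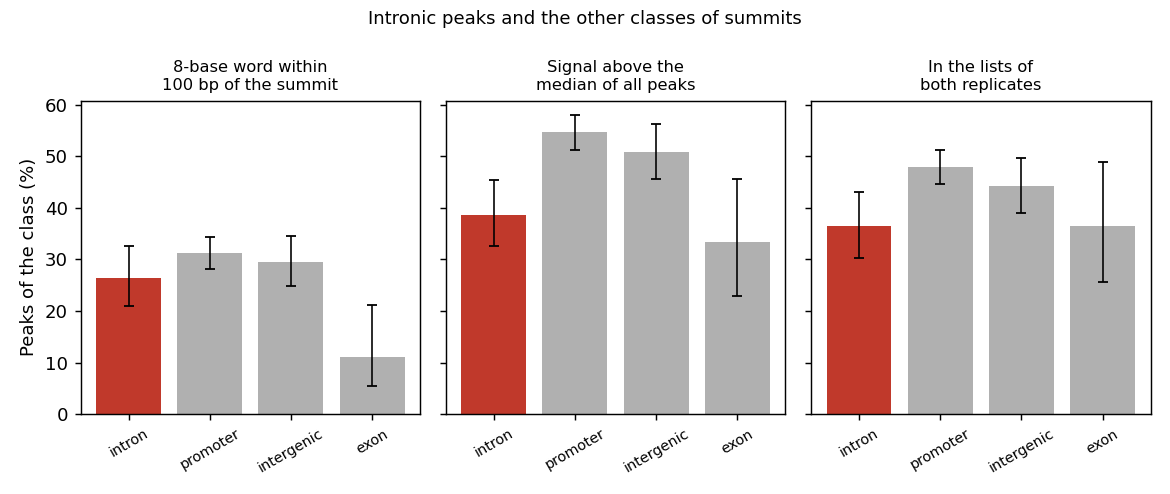
Share of intronic peaks (red) and of promoter, intergenic and exon peaks (grey) that hold the 8-base word, exceed the median signal of all peaks, or occur in both replicates' lists, with 95% Wilson intervals. The intronic share is near the promoter share for the word (26.3% against 31.2%) and below it for signal (38.7% against 54.6%) and for both replicates (36.4% against 48.0%).

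The replicates were read through each one's ranked list, where 215 of the 217 intronic peaks had an overlapping peak in both. The median signal was 60.4 in replicate 1 and 49.6 in replicate 2, and replicate 1 was the higher at 151 of the 215 (median ratio 1.2). This was not particular to introns: over the whole list replicate 1 was higher at 1169 of 1525 peaks (median ratio 1.27). The signal has no stated scale, so a higher value in 1 replicate is not a measure of more binding. Among the intronic peaks the balance of the replicates varied with the content of the window. With the word, replicate 1 was higher at 53 of 56 peaks, with a median ratio of replicate 1 over replicate 2 of 1.53. At summits in tRNA genes it was higher at 9 of 24, with a median ratio of 0.932. With signals limited to the range of the tRNA gene peaks, from 75.4 to 219, the word's share was 39 of 42 and its median ratio 1.69. Peaks with GAGAGA but no TTGCGAAA had a median ratio of 1.24, and the 87 with none of these 1.18. These groups were formed after the values were seen, so no test was made.

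**Figure D4:**
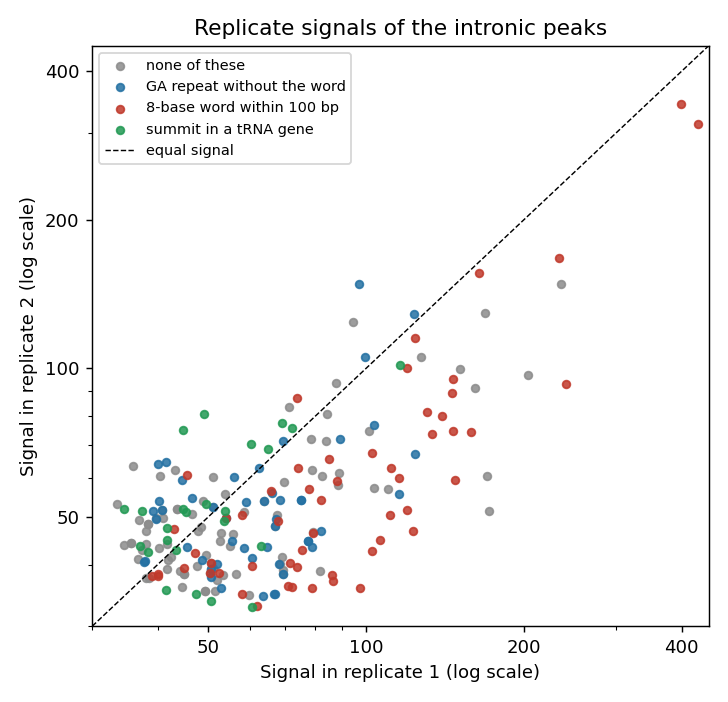
Signal of intronic peaks in replicate 1 against replicate 2 (both log scales), for the 215 peaks with a ranked peak in each, coloured by the content of the summit window. Peaks with the 8-base word lie mostly below the line of equal signal (53 of 56), and peaks in tRNA genes on both sides of it (9 of 24 below).

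The 49 peaks with GAGAGA and no TTGCGAAA, tRNA gene peaks left out, had a median signal of 100 and lay in introns with a median length of 4213 bp. The strongest was in epg-9 (250.6), followed by mdt-26 (237.4), cutl-18 (211.6), let-526 (192.6) and aak-2 (184.1). GAGAGA and TTGCGAAA met in 13 peaks, so GAGAGA stood at 22.8% of peaks with the word, against 36.2% of those without it. Of the 71 peaks with GAGAGA, 53.5% were above the median of the intronic peaks, against 47.9% of the others, and the median signals were 107 and 99.7. Promoter summits held GAGAGA in 33.7% and intergenic summits in 27.9%.

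A summit inside a nested non-coding gene was found for 48 intronic peaks (22.1%), while 2.06% of eligible intron positions, read every 100 bp, lie in such genes. Some touched more than one kind: 28 touched an annotated ncRNA, 24 a tRNA gene, 3 a small nucleolar RNA and 3 an antisense RNA, and 1 each a lincRNA, a pseudogene and a small nuclear RNA. The tRNA genes, which RNA polymerase III transcribes, make up 0.0657% of the eligible intron bases but held 11.1% (7.55 to 15.9%) of the intronic summits. At promoter summits the share was 1.71% (1.04 to 2.80%), and over all 1546 peaks it was 4.2% (65 peaks). Intergenic summits hold none by rule, because non-coding gene summits outside protein-coding genes form a class of their own. Of the 232 tRNA genes that lie wholly in eligible introns 23 held a summit (9.91%), against 10.6% of all 612 tRNA genes. Within 500 bp of a tRNA gene lay 30 intronic summits, including the 24 inside one.

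The 24 tRNA genes included 5 for glycine and 3 for threonine, and 18 of the 24 stood on the strand opposite to their host. Strand and amino acid were not counted for intronic tRNA genes without a summit, so no preference can be read from these counts. Signals ran from 219.1 in sulp-3 (116.2 in replicate 1 and 101.7 in replicate 2, asparagine tRNA) to 75.36 in hpr-9 (41.56 and 35.57, threonine tRNA). Between them came snx-17 (152.8, glycine), C06G1.1 (143.9, histidine), the cyclin E gene cye-1 (131.9, cysteine) and F14B4.1 (131.6, arginine), the last in an intron of only 125 bp. No window of the 24 held TTGCGAAA, and 17 held GGTTCGA, the core of the internal B box of tRNA genes. These windows were picked for holding a tRNA gene, so the count of GGTTCGA describes the genes and not the binding. No window was made of unique sequence only, and between 63.9 and 89.8% of the 36-base words of a window occurred once in the genome. How far reads from copies elsewhere contributed was not tested.

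Introns with peaks were long and often the first. Their median length was 1482 bp (quartiles 624 and 4347 bp), against 949 bp for eligible positions read every 100 bp and 64 bp for all 103819 introns. First introns held 35.5% of the peaks (29.4 to 42.1%), against 21.4% of eligible positions. Introns over 5000 bp held 22.6% (17.5 to 28.6%), against 13.9% of positions. Introns up to 500 bp held 20.3% (15.5 to 26.1%), against 28.7%. The shortest host introns were in ruvb-2 (53 bp, signal 74.60), rha-2 (82 bp, signal 96.86) and F14B4.1. The word was at 20 of 40 peaks in introns of 1000 to 2000 bp, and at 7 of 49 in introns over 5000 bp.

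**Figure D5:**
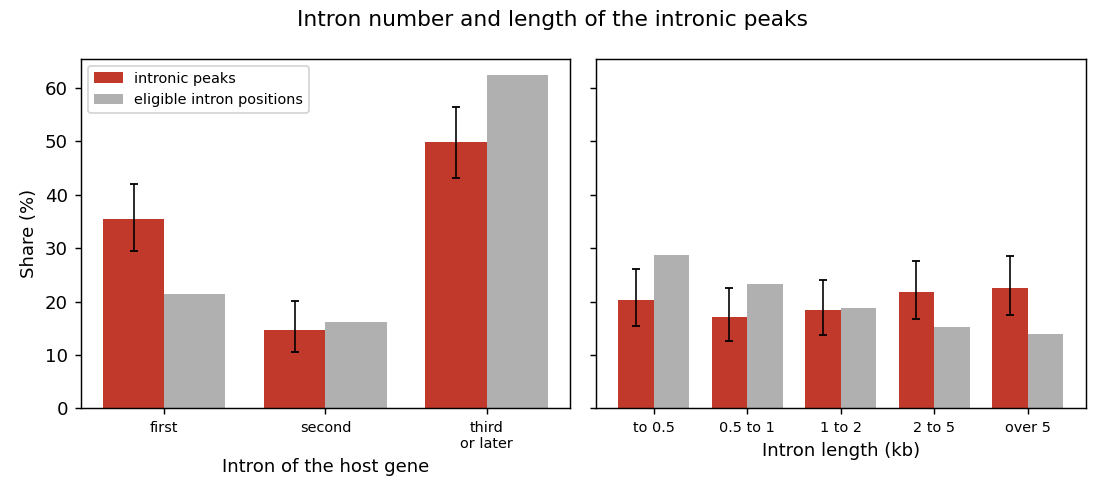
Share of the 217 intronic peaks (red, with 95% Wilson intervals) and of eligible intron positions read every 100 bp (grey), by intron number in the host gene and by intron length in kb. First introns hold 35.5% of peaks and 21.4% of positions, and introns over 5 kb hold 22.6% and 13.9%.

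The distance from a summit to the nearest protein-coding 5′ end had a median of 1391 bp (quartiles 818 and 2689 bp), and it was over 2000 bp for 80 of the 217 and over 5000 bp for 21. That end belonged to the host for 179 peaks and to another gene for 38, and 71 summits lay downstream of their nearest 5′ end by no more than 1000 bp. In 79 cases the summit was upstream of a later 5′ end of the same host, that of a shorter isoform. Of the hosts, 29 of 181 (16%) also had a summit in the promoter, against 5.06% of all protein-coding genes and 4.99% of those with an eligible intron. A gene was counted when any of its 5′ ends had such a summit. Genes were not matched for length or number of 5′ ends, so these shares are not like for like. Closest to the limit was Y71H10B.1, with its summit 201 bp downstream of the 5′ end and a signal of 245.6, and then the sphingomyelin synthase gene sms-3 at 210 bp (85.10) and E02C12.12 at 213 bp (123.3). Just inside it, and so counted as promoter peaks, were sptl-2 at 198 bp (108.6), dnj-20 at 196 bp (149.9) and ech-1.2 at 991 bp upstream (103.7).

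By chromosome, X held 52 of the 217 (24.0%, 18.8 to 30.1%), against 16.9% of eligible bases and 21.3% of all 1546 peaks. III held 51 (23.5%, 18.4 to 29.6%), against 16.5% of eligible bases and 16.9% of all peaks. Both had 11.4 peaks per eligible megabase. I had the fewest, 5.02 per megabase. One peak, at III 10561206 to 10561509, lay in introns of both Y45F3A.1 and rab-30, with a signal of 87.50. For all other peaks there was a single host.

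Hosts were then read by 10 gene lists. The lists differ in how much intron their genes have, with medians from 599 eligible bases (lipid and energy metabolism) to 4401 (axon guidance, adhesion and basement membrane), against 689 over all genes, so their shares are not set against the 1.05% as a result. Of 52 genes for motors and microtubule factors, 6 hosted a peak. Beside dhc-4 and klc-2 (238.7, with 146.1 in replicate 1 and 89.22 in replicate 2) these were hum-5, a class I myosin (162.4), and klp-7, a kinesin-13 that takes microtubules apart (145.5). Then came spe-15, a myosin VI (106.9, with its summit 38 bp from a tRNA gene), and klp-6, a kinesin-3 of cilia (95.03). The first 4 held the word, the last 2 did not. The median of the 6 was 154. Since the lists were chosen with earlier results of these data known, it is not set against other peaks.

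Of 49 genes for axon guidance, adhesion and basement membrane, 3 were hosts: unc-33, the Robo receptor gene sax-3 (104.3, with the word) and the hemicentin gene him-4 (90.11, in a nested ncRNA gene). The him-4 summit lay 17 bp from a tRNA gene, and 72.9% of the 36-base words of its window were unique. Of 67 signalling genes 3 were hosts. aak-2, a catalytic subunit of AMP-activated kinase, had 184.1 in its first intron (103.3 in replicate 1 and 76.90 in replicate 2). dlk-1 had 128.8 in its first intron (77.72 and 56.93), 50.5 bp from a copy of the word. tir-1, the SARM1 adaptor upstream of the p38 pathway in worms, had peaks of 92.35, 76.24 and 17.07, and the window of the first held no unique 36-base word.

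Of 46 stress, immune and longevity genes 3 were hosts. The nuclear receptor gene daf-12 had 108.7 with the word (78.81 in replicate 1 and 35.79 in replicate 2). The FOXO gene daf-16 had 100.2 (69.24 and 39.00), and the Nrf-family gene skn-1 had 98.98, 84.69 and 4.828 in its first intron. No peak of skn-1 passed the threshold in either replicate alone. Of 85 developmental transcription factors 3 were hosts: the AP-1 gene fos-1 (143.1, with the word), the TEAD gene egl-44 (125.1) and fkh-7 (114.1). Of 47 genes for synaptic transmission 2 were hosts, the syntaxin gene unc-64 (108.8, with the word) and unc-41 (87.23). The TRPV channel gene osm-9 (91.36) was the single host among 58 ion channel genes. Its summit lay 2 bp from a tRNA gene, and 74.1% of the 36-base words of its window were unique. None was found among 46 muscle sarcomere genes, 55 chromatin and RNA-binding regulators and 53 genes for lipid and energy metabolism, of which 3, 8 and 8 had a promoter peak. The lists hold only part of each class of genes: hosts outside them include zfp-1 and let-526, which encode chromatin factors, and sms-3 and pmt-2, which encode enzymes of lipid synthesis.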

How the data were processed

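Peak lists of 2 biological replicates of 1 group were used. Per the deposited notes the authors called peaks on ce11 against a control alignment and ranked them by IDR, while the peak caller is not given in the sources used here. The deposited score column holds whole numbers from 830 to 1000 in the conservative list. The deposited signal value per peak has no stated scaling and ranks peaks within a list. For each peak the ranked list supplied the deposited −log10 global IDR. Depth is unknown.

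Summits were placed on the Ensembl annotation of WBcel235. A host's intron was taken from the transcript with the longest coding sequence among those that span the summit. Where a summit had more than 1 host, the host with the shorter intron was used. Motifs were read on both strands. Tests were exact McNemar, Fisher and binomial tests with the Benjamini-Hochberg method and a threshold of 0.05. Wilson intervals (95%) cover counting error only, and p-values over peaks describe this list, not the spread between animals. Members, motifs and lists were chosen with earlier results of these data known. Named genes were the 20 strongest peaks, hosts with several peaks, peaks with several words or the palindrome, up to 4 peaks per list, extremes of intron length, signal and promoter limit, and nested genes. The descriptions of tRNA genes, overlapping peaks, window content, unique 36-base words and site neighbours were added after the peaks were seen, as were cutl-18, let-526, and the restriction to unique windows or to summits outside tRNA genes. Procedures were tested on simulated data. Computation used Python 3.11.15 with scipy 1.17.1, numpy 2.4.6, pandas 2.3.3 and, for plots, matplotlib 3.10.9.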

Additional observations from a re-analysis of the deposited data

How the results depend on the processing

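Values below are differences in percentage points, intronic minus other or summit minus flank, unless said otherwise. Of 368 recomputed values under 14 alternatives, 322 kept direction and call. TTGCGAAA and GAGAGA at summits passed in all 13 alternatives run on them, and no call was lost or gained for strand, first introns, intron length or hosts with promoter peaks. The count of intronic peaks, 217 as reported, was 91 at IDR of at most 0.001, and between 103 and 186 in the lists of 1 replicate.

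At that IDR calls were lost for GGGCGG (9.89), TTGCGAAA against exon peaks (14.3), signal against promoter (-13.4) and intergenic peaks (-17.9), both replicates against promoter peaks (-2.56), signal with the word (24.4) and signal in nested genes (-8.97). Fewer peaks were tested, and some differences were also smaller. In the full list both replicates against promoter peaks was -11.6, signal with the word 34.8 and signal in nested genes -23.8. Those for TTGCGAAA against exon peaks (15.2) and signal against promoter peaks (-15.9) changed less, and those for GGGCGG (9.68) and signal against intergenic peaks (-12.2) did not shrink. In the optimal list the nested gene difference was 8.82, turned in direction, and that for the word 15.6. In the lists of 1 replicate TTGCGAAA against exon peaks was 13.7 to 17.1, against promoter peaks -17.5 to -0.185, and against intergenic peaks -13.2 to 3.66. Signal against intergenic peaks was -26.9 to -4.33, TTGCNNAA 3.88 to 18.8, signal with the word 23.8 to 29.7, and signal in nested genes -7.95 to 21.5. The measure for both replicates is another one in these lists, since only presence in the other replicate's list can vary. It was -12.1 to -7.18 against promoter peaks and -0.6 to 23.1 against exon peaks (turned in direction with replicate 2's own list).

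With overlapping peaks merged, calls were lost for TTGCGAAA against exon peaks (15) and signal against intergenic peaks (-9.51). With promoters of 500 and 100 bp they were lost for exon peaks (10.6) and nested genes (-18.7). With 2000 and 500 bp they were lost for TTGCNNAA (6.08), exon peaks (13.5), signal against intergenic peaks (-12.5), both replicates against promoter peaks (-8.67) and nested genes (-22), and TTGCGAAA against promoter peaks passed (-12.4). GGGCGG was lost with exons of other genes allowed (6.39) and with the far flank (5.99), and TTGCNNAA with the wide window (5.53). Without tRNA gene summits signal against intergenic peaks was lost (-10.3). With unique windows only it was lost (-9.13), as were both replicates against promoter peaks (-10.1) and nested genes (-25.4). The E-box CACGTG passed at IDR of at most 0.001 (11.0), with merged peaks (8.5), with promoters of 500 and 100 bp (6.09), without tRNA gene summits (7.25) and with unique windows only (9.55), and was 5.91 to 10.7 in the lists of 1 replicate. WWTRTCAT passed in the optimal list (-6.27). Causes were not tested. No paired analysis was possible because there is only 1 group.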
